A study of Mus musculus with 15 samples.

Results

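Voltage-gated sodium channels were examined in mouse cortex, comparing animals given high-frequency head impact (HF-HI) with Sham animals at 1 month. The members are Scn1a, Scn2a, Scn3a and Scn8a, which encode pore-forming alpha subunits, and Scn2b, Scn3b and Scn4b, which encode beta subunits. They were found by matching the listed Ensembl transcripts to the GENCODE M21 annotation and keeping every transcript of these 7 genes. This gave 15 transcripts of 10370, with 11 from the alpha subunit genes and 4 from the beta subunit genes. The animals were male C57BL/6 mice with a labelled age of 12 weeks, and RNA came from dissected cortex. Anesthesia was common to both groups, and impacts were given to the 8 HF-HI mice and not to the 7 Sham mice. The labels do not say whether animals were pooled, and the p-values below measure the spread between these libraries. In bulk tissue, fewer cells of a type and less RNA per cell cannot be told apart.

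A sodium channel alpha subunit folds into 4 homologous domains around a pore, and opens within a fraction of a millisecond when the membrane depolarizes. Beta subunits span the membrane once, change the gating and surface level of the alpha subunit, and act as adhesion molecules. In the forebrain, Scn1a (Nav1.1) is best known from fast-spiking interneurons and Scn2a (Nav1.2) from excitatory neurons and unmyelinated axons. Scn8a (Nav1.6) dominates at mature axon initial segments and nodes of Ranvier, and Scn3a (Nav1.3) is most abundant before birth. Scn2b and Scn4b form a disulfide bond with the alpha subunit, whereas Scn3b binds without one. Scn4b also supplies the blocking particle for resurgent current and is enriched in the striatum.

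The transcripts of a single gene are very alike, so sequences that bear on telling them apart are shown first. An extension of a coding exon separates Scn8a-204 from the other listed transcripts of Scn8a. It covers 30 bases at chr15:100984046-100984075 of GRCm38 on the plus strand. Capitals mark the extension and lower case the preceding 30 bases of the exon, 5′ to 3′.
Scn8a extension: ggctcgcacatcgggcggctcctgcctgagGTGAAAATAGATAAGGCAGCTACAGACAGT

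Scn1a-204 and Scn1a-201, by contrast, encode the same protein, and all 5994 of their coding bases were identical. The transcripts differ at the first exons. Scn1a-204 begins at position 66440837 of chromosome 2, Scn1a-203 begins 30773 bases downstream, and Scn1a-201 begins 89642 bases downstream of Scn1a-204. Of the 8287 bases of Scn1a-204, 173 were absent from Scn1a-201, and 2 of the 8116 bases of Scn1a-201 were absent from Scn1a-204. Against all the other listed Scn1a transcripts, 25 bases were found only in Scn1a-204 and 0 only in Scn1a-201. All 8116 bases of Scn1a-201 also lie in Scn1a-203. The 250 bases before the start of Scn1a-204 are given from the RefSeq promoter table (GRCm38.p6, chr2:66440838-66441087, minus strand), because the results below turn on this transcript. The capitals mark a CCAAT box, found by searching both strands for CCAAT, a motif held by 33.8% of the 32851 promoters in that table.
Scn1a promoter: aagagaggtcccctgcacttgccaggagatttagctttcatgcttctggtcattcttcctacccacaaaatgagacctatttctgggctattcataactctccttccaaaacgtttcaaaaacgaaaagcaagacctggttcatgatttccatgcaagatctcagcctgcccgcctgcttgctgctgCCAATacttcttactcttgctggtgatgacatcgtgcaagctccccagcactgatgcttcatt

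Levels of the genes were compared per length, as normalized counts per kilobase summed over the listed transcripts of a gene. A normalized count is a read count divided by the size factor of its library, which removes differences in depth. Scn2a had the highest level, at 813 ± 34.3 normalized counts per kilobase (SD over all 15 libraries), and was above every other member in all 15 libraries. Scn2b followed at 468 ± 34.5, Scn1a at 437 ± 23.9, Scn4b at 404 ± 70.3 and Scn8a at 363 ± 11.7. These 4 neighbours in the order overlapped. Scn2b was above Scn1a in 12 libraries, Scn1a was above Scn4b in 9, and Scn4b was above Scn8a in 11. Scn3b, at 107 ± 16.5, was above Scn3a, at 77.0 ± 10.01, in 14 libraries, and both stood below the other members in every library. Dividing by length gives short transcripts more weight. The level of Scn2a includes Scn2a-204, of 1810 bases. That of Scn1a includes Scn1a-205, of 2978 bases and annotated as a retained intron. Levels without these transcripts were not computed.

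**Figure D1:**
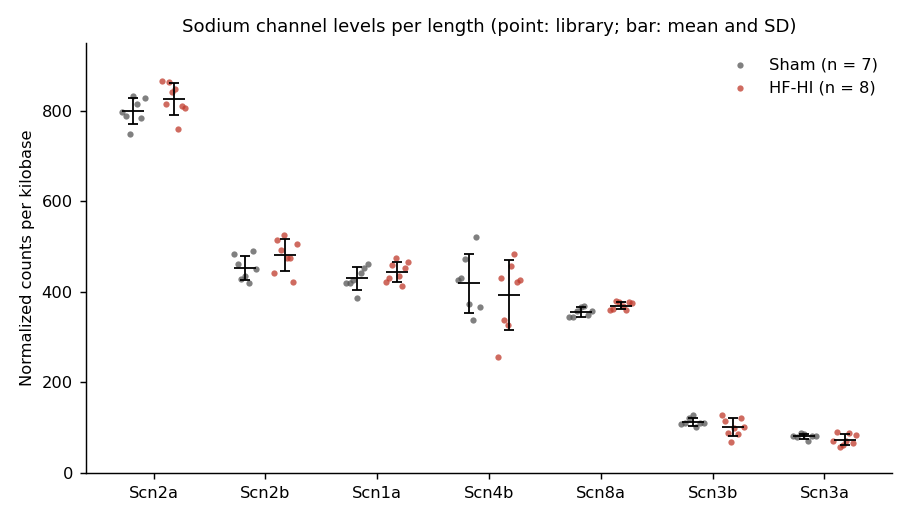
Normalized counts per kilobase (vertical axis, linear from 0) of the 7 sodium channel genes (horizontal axis, in order of mean level) in 7 Sham and 8 HF-HI libraries. Each point is a library, and the dash and bar give the mean and SD of a group. Scn2a lies above all other genes, and Scn3b and Scn3a lie below them.

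Among the alpha subunits, the composition was nearly the same in both groups. Scn2a made up 48.0% ± 1.14 of the summed alpha level per kilobase in Sham (SD, n = 7) and 48.2% ± 1.29 in HF-HI (n = 8). Scn1a made up 25.8% ± 1.32 and 25.9% ± 0.883, and Scn8a 21.4% ± 0.561 and 21.6% ± 0.427. Scn3a, the subunit with the least RNA in this adult tissue, made up 4.86% ± 0.411 in Sham and 4.31% ± 0.785 in HF-HI. The ranges of the 2 groups overlapped for each of the 4 subunits. These shares include Scn2a-204 and Scn1a-205, short transcripts to which the division by length gives more weight.

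HF-HI was then compared with Sham for each gene, using reads summed over its listed transcripts (voom and limma, two-sided, adjusted over 7741 genes). Of the 7 member genes, 1 had an unadjusted p under 0.05, against a background of 9.44% of all genes, and none passed the adjusted threshold of 0.1, which 1 gene of 7741 (0.0129%) passed. All 7 differences were small, from a log2 difference of −0.17 in Scn3b to 0.09 in Scn2b.

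Scn8a, the alpha subunit of nodes and axon initial segments, was the member with the unadjusted p under 0.05. Its normalized counts had a lowest value of 3861, a median of 4017 and a highest value of 4153 in Sham, and 4036, 4183 and 4272 in HF-HI. Every one of the 8 HF-HI libraries exceeded the Sham median and 4 exceeded all Sham libraries, so the groups overlapped. The log2 difference was 0.06 (SE 0.0236, 95% interval 0.0070 to 0.106), with adjusted p = 0.461 by voom and limma, and the adjusted p lay between 0.345 and 0.800 over the alternatives. An exact two-sided permutation of the group means of its log2 counts over 6435 splits gave p = 0.0140, which is not corrected for the other members. The unadjusted p was no longer under 0.05 without Sham replicate 1 (log2 difference 0.0489), Sham replicate 2 (0.0488), Sham replicate 6 (0.0519) or HF-HI replicate 3 (0.0504), or with sequencing depth as a covariate (0.0611).

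The other alpha subunits did not pass the test. Scn1a, the Nav1.1 gene, had counts of 2954 to 3509 (median 3301) in Sham and 3219 to 3738 (median 3415) in HF-HI, and its log2 difference was 0.06 (95% interval −0.0259 to 0.136, voom adjusted p = 0.709). Scn2a, the Nav1.2 gene, spanned 5515 to 5854 (median 5682) in Sham and 5488 to 6110 (median 5799) in HF-HI, with a log2 difference of 0.04 (95% interval −0.0129 to 0.0888, voom adjusted p = 0.681). The Scn3a gene spanned 594 to 752 (median 691) in Sham and 496 to 769 (median 609) in HF-HI, with a log2 difference of −0.14 (95% interval −0.316 to 0.0363, voom adjusted p = 0.661). For Scn3a, 3 HF-HI libraries lay below every Sham library and 1 lay above every one. As fold changes, the 95% intervals were 0.982 to 1.099 for Scn1a, 0.991 to 1.06 for Scn2a, 0.803 to 1.03 for Scn3a and 1.005 to 1.08 for Scn8a, so the interval of Scn3a was the widest of the 4.

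None of the 3 beta subunits passed the test either. Scn2b, whose protein is linked to the alpha subunit by a disulfide bond, spanned 1956 to 2284 normalized counts (median 2101) in Sham and 1962 to 2446 (median 2254) in HF-HI. It had a log2 difference of 0.09 (95% interval −0.0130 to 0.185, voom adjusted p = 0.607). Scn3b, the beta subunit that binds without a covalent link, spanned 415 to 529 (median 451) in Sham and 278 to 523 (median 413) in HF-HI, and 4 HF-HI libraries lay below every Sham library. Its log2 difference was −0.17 (95% interval −0.365 to 0.0343, voom adjusted p = 0.632). Scn4b had the widest spread of the 7 genes in Sham, with an SD of 15.4% of the mean, and spanned 1687 to 2595 (median 2120) in Sham and 1277 to 2407 (median 2111) in HF-HI. Its log2 difference was −0.10 (95% interval −0.359 to 0.160, voom adjusted p = 0.852), which was −0.0082 without HF-HI replicate 1, −0.0409 without Sham replicate 6 and −0.15 without Sham replicate 5. Scn3a and Scn3b, the genes with the lowest levels, had an SD of 7.28% and 8.32% of the mean in Sham and of 16.3% and 19.7% in HF-HI.

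Single libraries moved these values in both directions. The log2 difference of Scn3a was −0.0815 without HF-HI replicate 3, and that of Scn1a was 0.0265 without Sham replicate 4. The unadjusted p of Scn2b by voom fell under 0.05 without Sham replicate 1 (log2 difference 0.10), Sham replicate 6 (0.11), HF-HI replicate 1 (0.10) or HF-HI replicate 7 (0.11). That of Scn3a did so without Sham replicate 5 (−0.18), HF-HI replicate 2 (−0.17) or HF-HI replicate 6 (−0.18). That of Scn3b did so without HF-HI replicate 1 (−0.22) and that of Scn2a without HF-HI replicate 6 (0.05). No adjusted p of these genes was under 0.1 in any alternative.

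**Figure D2:**
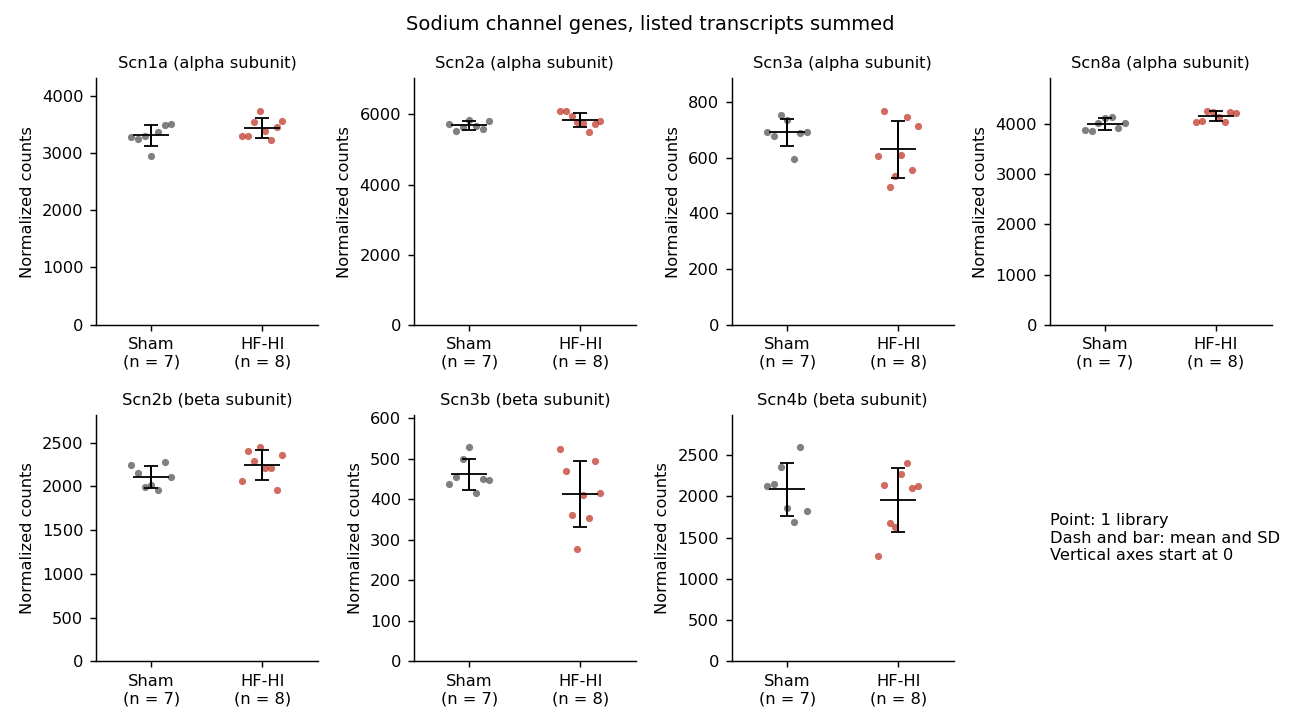
Normalized counts (vertical axes, linear from 0) of the 7 sodium channel genes, summed over listed transcripts, in Sham (n = 7) and HF-HI (n = 8). Each point is a library, and the dash and bar give the mean and SD. The groups overlap in all 7 panels, and Scn4b has the widest spread in Sham.

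Each listed transcript was also compared on the deposited variance-stabilized (VSD) scale, a log2-like scale that compresses low counts, with limma adjusted over 10370 transcripts. A single member transcript of 15 (6.67%) had an unadjusted p under 0.05, against a background of 8.83% of all transcripts. None of the 15 passed the adjusted threshold of 0.1, and neither did any of the 10370 transcripts, of which 916 had an unadjusted p under 0.05. The difference was positive for 8 members and negative for 7, with a median of 0.00 in VSD. The groups overlapped for all 15, and how often they do so among all transcripts was not computed.

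The transcript was Scn1a-204 (ENSMUST00000112371, chr2:66270782-66440837, minus strand), which begins at the farthest upstream start shown above. Its normalized counts had a lowest value of 545, a median of 704 and a highest value of 861 in Sham, and 782, 882 and 1578 in HF-HI. All 8 HF-HI libraries exceeded the Sham median, and 4 exceeded all Sham libraries. The mean was 706 ± 129 in Sham (SD, n = 7) and 1001 ± 272 in HF-HI (n = 8), a log2 ratio of means of 0.50. The VSD difference was 0.21 (SE 0.0695, 95% interval 0.0646 to 0.360), with adjusted p = 0.404 by limma. An exact two-sided permutation over 6435 splits gave p = 0.00979, not corrected for the other members. In all 25 alternatives, which include leaving out each library, the unadjusted limma p was under 0.05 and the adjusted p lay between 0.326 and 0.734.

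Scn1a-201 (ENSMUST00000077489, chr2:66270784-66351195), which encodes the same protein, had values in the opposite direction. Its counts had a lowest value of 1055, a median of 1339 and a highest value of 1473 in Sham, and 527, 1039 and 1648 in HF-HI. In HF-HI, 5 libraries lay below every Sham library and 1 lay above every one. The VSD difference was −0.13 (95% interval −0.298 to 0.0431), with adjusted p = 0.675 by limma. The unadjusted p was under 0.05 with sequencing depth as a covariate (VSD difference −0.25) and without HF-HI replicate 4 (−0.17), and over it in the other 23 alternatives. Without HF-HI replicate 3 the VSD difference was −0.0680.

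The remaining Scn1a transcripts had near-equal means. Scn1a-203 (ENSMUST00000112366) averaged 1195 ± 140 normalized counts in Sham libraries and 1219 ± 102 in HF-HI libraries (VSD difference 0.02, limma adjusted p = 0.930). Scn1a-205 (ENSMUST00000129508), annotated as a retained intron, had 135 ± 23.5 and 131 ± 29.5 (limma adjusted p = 0.952). Scn1a-205 begins at position 66440814, close to the start of Scn1a-204 at 66440837, and shares 428 bases with Scn1a-204.

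Among the Scn2a transcripts, Scn2a-201 (ENSMUST00000028377) and Scn2a-202 (ENSMUST00000100067) share 8690 bases and begin 49674 bases apart. Scn2a-201 averaged 3384 ± 346 normalized counts in Sham libraries and 3539 ± 388 in HF-HI libraries (limma adjusted p = 0.842), and Scn2a-202 averaged 1946 ± 378 and 1923 ± 468 (limma adjusted p = 0.974). Scn2a-204 (ENSMUST00000144254), a short transcript, had 355 ± 50.6 and 377 ± 62.1 (limma adjusted p = 0.873). The single listed transcript of Scn3a, Scn3a-202 (ENSMUST00000100069), had 691 ± 50.2 and 629 ± 102 (limma adjusted p = 0.681).

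For Scn8a, the main transcript Scn8a-205 (ENSMUST00000108910) had almost the same mean in both groups, at 3221 ± 252 normalized counts for Sham and 3220 ± 222 for HF-HI (VSD difference 0.00, 95% interval −0.0770 to 0.0776, limma adjusted p = 0.998). Scn8a-201 (ENSMUST00000082209) had 667 ± 229 and 761 ± 180 (limma adjusted p = 0.802). Scn8a-204 (ENSMUST00000108909), with the 30-base extension, was scarce and variable. It spanned 25.1 to 268 (median 107) in Sham and 38.1 to 308 (median 159) in HF-HI, with a VSD difference of 0.15 (limma adjusted p = 0.629). The unadjusted p of Scn8a-204 was under 0.05 without Sham replicate 3 (VSD difference 0.20) or HF-HI replicate 6 (0.19).

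The beta subunit transcripts were Scn2b-202 (ENSMUST00000170998), Scn3b-201 (ENSMUST00000049941), Scn3b-203 (ENSMUST00000171835) and Scn4b-201 (ENSMUST00000060125). Scn3b-201 averaged 273 ± 51.7 normalized counts in Sham libraries and 226 ± 64.7 in HF-HI libraries (limma adjusted p = 0.670), and Scn3b-203 averaged 190 ± 54.0 and 188 ± 43.8 (limma adjusted p = 0.996). Scn2b and Scn4b each had a single listed transcript, so their counts are those of the gene, and limma gave adjusted p = 0.636 for Scn2b-202 and adjusted p = 0.857 for Scn4b-201. The unadjusted p of Scn2b-202 was under 0.05 without HF-HI replicate 7 (VSD difference 0.07), and that of Scn3a-202 without HF-HI replicate 2 (−0.07).

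**Figure D3:**
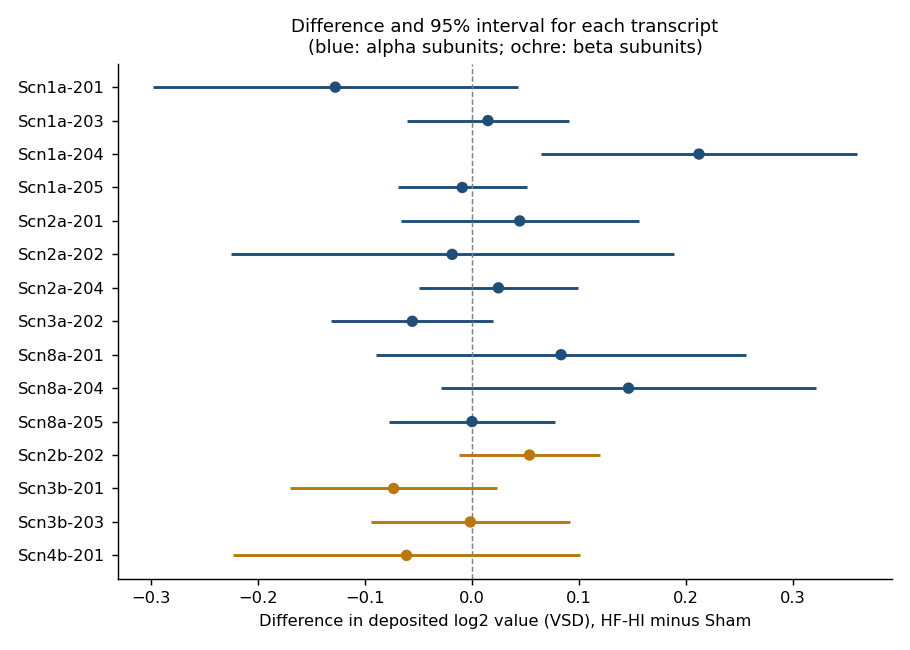
Difference in the deposited VSD value between HF-HI and Sham (horizontal axis, HF-HI minus Sham, log2-like scale) for the 15 sodium channel transcripts (vertical axis). Points give the limma difference and lines its 95% interval, in blue for alpha subunits and ochre for beta subunits. The interval of Scn1a-204, from 0.0646 to 0.360, is the only one of the 15 that does not include 0.

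Whether transcripts changed relative to the rest of their gene was tested with limma's diffSplice over 4138 transcripts of 1638 genes with several listed transcripts. Scn1a, Scn2a, Scn8a and Scn3b contributed 12 of these. An unadjusted p under 0.05 was found for 3 of the 12, against a background of 13.2%, and 2 of the 12 passed the adjusted threshold of 0.1, against a background of 1.52%. Both of the latter were Scn1a transcripts.

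Scn1a-204 held 15.6% to 26.9% of the listed Scn1a counts in Sham (median 20.1%) and 21.7% to 44.5% in HF-HI (median 27.1%). All 8 HF-HI libraries exceeded the Sham median and 4 exceeded all Sham libraries, as for its counts. The mean share rose from 21.5% ± 4.55 to 29.2% ± 7.61, and diffSplice gave a log2 difference of 0.62 relative to the other transcripts (SE 0.163, adjusted p = 0.0436). Scn1a-201 held 34.1% to 42.0% in Sham (median 39.2%) and 14.9% to 44.1% in HF-HI (median 31.5%). Its mean share fell from 38.3% ± 3.37 to 31.5% ± 8.46, with a diffSplice log2 difference of −0.54 (SE 0.155, adjusted p = 0.0824). The share of Scn1a-203 was 36.1% ± 2.84 and 35.5% ± 3.002 (diffSplice adjusted p = 0.988), so the values that differed were those of the transcripts with identical coding sequence.

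**Figure D4:**
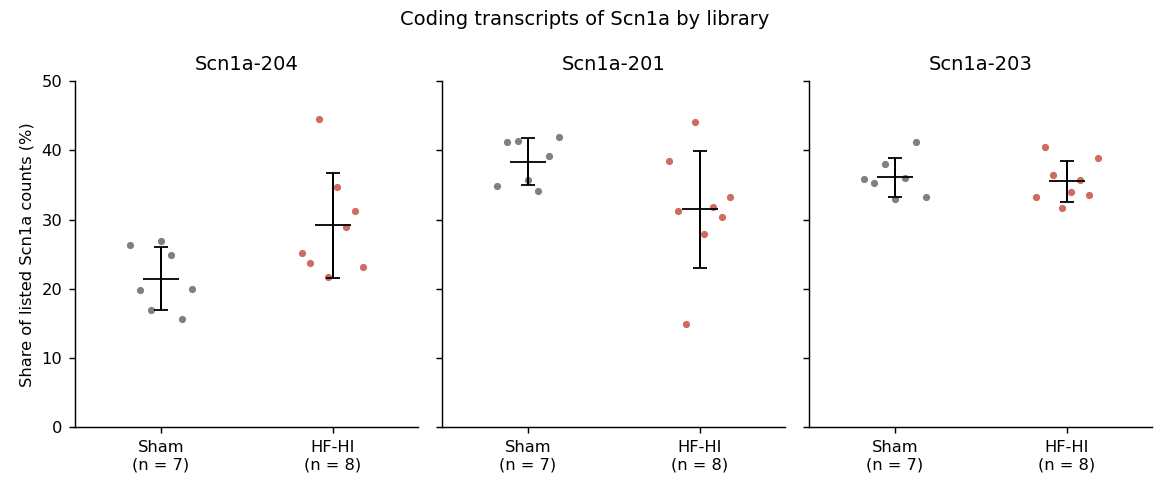
Share of the listed Scn1a counts (vertical axis, percent, from 0) held by each coding Scn1a transcript in Sham (n = 7) and HF-HI (n = 8). Each point is a library, and the dash and bar give the mean and SD. Scn1a-204 has a mean of 21.5% in Sham and 29.2% in HF-HI, Scn1a-201 has 38.3% and 31.5%, and Scn1a-203 has 36.1% and 35.5%.

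The call for Scn1a usage depended on the test. diffSplice treats the transcripts of a gene as independent, whereas the authors' counting divided shared reads between them. Within groups, the counts of Scn1a-204 and Scn1a-201 had a Pearson r of −0.80 over the 15 libraries. This was not particular to Scn1a, as r was −0.91 for Scn2a-201 and Scn2a-202 and −0.84 for Scn8a-201 and Scn8a-205. It was −0.28 for Scn3b-201 and Scn3b-203 and −0.18 for Scn1a-204 and Scn1a-203. A limma test on the log2 ratio of a transcript to the rest of its gene, taken once per library and chosen after seeing the data, gave 0.58 for Scn1a-204 (95% interval 0.0805 to 1.09, adjusted p = 0.735). It gave −0.48 for Scn1a-201 (95% interval −1.004 to 0.0448, adjusted p = 0.735). Exact two-sided permutations of the same ratios gave p = 0.0274 for Scn1a-204 and p = 0.0535 for Scn1a-201, not corrected for the other members. In the limma ratio test, 258 of the 4138 transcripts (6.23%) had an unadjusted p under 0.05 and 0 had an adjusted p under 0.1. By diffSplice, 548 (13.2%) had an unadjusted p under 0.05 and 63 passed the adjusted threshold. The unadjusted p of Scn1a-204 in the ratio test was under 0.05 in 13 of 15 leave-one-out fits, with log2 ratios from 0.44 to 0.66, and over it without Sham replicate 3 or Sham replicate 6 and with replicate number as a block (log2 ratio 0.64), a fit to which HF-HI replicate 8 adds nothing because no Sham library shares its number.

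With diffSplice, the adjusted p of Scn1a-204 was over 0.1 without Sham replicate 6 (0.139), HF-HI replicate 5 (0.102) or HF-HI replicate 7 (0.101) and with replicate number as a block (0.106), and ranged from 0.0052 to 0.968 over all alternatives including the ratio test. HF-HI replicate 3 had the highest share of Scn1a-204 and the lowest of Scn1a-201. Without it the diffSplice log2 difference of Scn1a-204 was 0.44 with an adjusted p of 0.0765, and that of Scn1a-201 was −0.31 with an adjusted p of 0.211. For Scn1a-201 the adjusted p was over 0.1 without any of Sham replicates 2, 3, 6 and 7 or HF-HI replicates 2, 3, 5, 6 and 7, from 0.101 to 0.211.

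When only Scn1a-204 and Scn1a-201 were set against each other, Scn1a-204 held 28.5% to 43.0% of their sum in Sham (median 32.5%) and 33.0% to 74.9% in HF-HI (median 45.4%). Their sum averaged 1976 ± 103 normalized counts in Sham libraries and 2085 ± 186 in HF-HI libraries. The reads that tell them apart fall on few bases, as given above with their starts, and how the division of shared reads moved with group was not tested.

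Shares of the other sodium channel transcripts did not pass the adjusted threshold. Scn2a-201 held 59.5% ± 5.98 of Scn2a in Sham and 60.7% ± 6.99 in HF-HI (diffSplice adjusted p = 0.896), and Scn2a-202 held 34.2% ± 6.73 and 32.9% ± 7.65 (diffSplice adjusted p = 0.855). The Scn2a-204 share was 6.24% ± 0.863 and 6.46% ± 1.07 (diffSplice adjusted p = 0.949). Scn2a-204 is 1810 bases long and Scn2a-201 is 8935, so these shares of counts are not shares of molecules.

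For Scn8a, Scn8a-201 held 16.6% ± 5.49 of the listed counts in Sham and 18.3% ± 4.33 in HF-HI (diffSplice adjusted p = 0.855). Scn8a-205 held 80.6% ± 6.67 and 77.4% ± 4.74 (diffSplice adjusted p = 0.529). The share of Scn8a-204, with the 30-base extension, was 2.73% ± 2.04 and 4.27% ± 2.02, a diffSplice log2 difference of 0.92 (SE 0.449, adjusted p = 0.370) with an unadjusted p under 0.05. The unadjusted p of Scn8a-204 was over 0.05 without Sham replicate 4 (log2 difference 0.54), Sham replicates 2 (0.87) or 6 (0.81), or HF-HI replicates 1 (0.93), 2 (0.84), 4 (0.90), 5 (0.76) or 7 (0.92), and with depth as a covariate (0.53), with replicate number as a block (0.60) and in the ratio test (0.83). That of Scn8a-205 was under 0.05 without Sham replicate 3 (−0.41) or HF-HI replicate 3 (−0.44). For Scn3b, Scn3b-201 held 59.1% ± 11.3 and 54.1% ± 9.82 and Scn3b-203 the remainder (diffSplice adjusted p = 0.565).

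Depth differed between the groups. Sham libraries held 5798810 to 10582858 reads in the listed transcripts and HF-HI libraries 3496103 to 8666307. The log2 size factor averaged 0.30 in Sham and −0.25 in HF-HI (exact permutation, two-sided, p = 0.0280). Within groups, the Pearson r of the summed member genes with log2 size factor lay between −0.17 (Scn1a) and 0.19 (Scn2a) over 15 libraries. It was not computed for single transcripts such as Scn1a-204, so these values do not show how that transcript followed depth. With log2 size factor as a covariate, the VSD difference of Scn1a-204 was 0.31 (limma adjusted p = 0.734), the diffSplice difference 0.90 (adjusted p = 0.0052) and the log2 ratio 0.89 (limma adjusted p = 0.968). The differences of Scn1a-204 were thus larger with depth in the fit. Among all transcripts the share with an unadjusted p under 0.05 was then 5.14%.

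The cortical label was checked against cell type markers. Of 7 markers of cortical excitatory neurons, including Slc17a7, all 7 were listed, and their summed normalized counts were 16967 to 19018 in Sham (median 18212) and 17785 to 19819 in HF-HI (median 19161). The HF-HI sum was over the Sham median in 7 of 8 libraries, and 1 of the 8 transcripts, from Camk2a, was higher at an unadjusted p under 0.05 by limma. Markers of striatal projection neurons were also present, with 8 of 9 genes listed and Drd2 not among them. Their summed counts were 7110 to 10830 in Sham (median 9145) and 5063 to 10294 in HF-HI (median 7522), and 3 of their 15 transcripts were lower at an unadjusted p under 0.05 by limma and none was higher, against backgrounds of 3.9% lower and 4.94% higher. The striatal sum was below the Sham median in 7 of 8 HF-HI libraries. Of 8 markers of parvalbumin and other interneurons 7 were listed, with summed counts of 7278 to 8066 and 7072 to 7983 and 0 of 9 transcripts at an unadjusted limma p under 0.05. With reads summed per gene, 1 of the 7 interneuron genes, Kcnc1, was higher at an unadjusted voom p under 0.05 and none was lower. The background was 9.44% of all genes, and the log2 difference of Kcnc1 was 0.11 (voom adjusted p = 0.384). By the same test 3 of the 8 striatal genes (Pde10a, Penk and Tac1) were lower and none was higher. Of the 7 excitatory genes, 1 (Camk2a) was higher and none was lower. Among markers of other cells, 1 of 11 astrocyte transcripts (Aldoc-201) and 1 of 6 microglia transcripts (P2ry12-202) were lower at an unadjusted limma p under 0.05 and none was higher. The counts were 0 of 16 for oligodendrocyte and 0 of 5 for endothelial transcripts. For the choroid plexus only Ttr of 5 markers was listed, at 35.0 to 6685 in Sham and 21.04 to 8663 in HF-HI.

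Scn4b followed the striatal marker sum closely. The Pearson r over the 15 libraries was 0.913 (permutation p = 3e-05, adjusted over 7 relations to 2.1e-04) and Spearman's rho was 0.889 (permutation p = 5e-05). It was 0.955 within the 7 Sham libraries and 0.948 within the 8 HF-HI libraries. Without HF-HI replicate 1 and Sham replicate 6, the libraries farthest from the median of the marker sum, r was 0.846. Scn2a ran the opposite way, with r = −0.733 (permutation p = 0.00182, adjusted to 0.00637) and rho = −0.707 (permutation p = 0.00407), −0.486 within Sham, −0.750 within HF-HI and −0.606 without the same 2 libraries. For Scn3a r was 0.647 (permutation p = 0.00981, adjusted to 0.0229) and for Scn8a −0.522 (permutation p = 0.0457, adjusted to 0.0800). Within groups these were 0.640 and −0.528 in Sham and 0.575 and −0.166 in HF-HI. For Scn1a, Scn2b and Scn3b it was −0.343, −0.0645 and 0.143, with adjusted p from 0.292 to 0.819. Permutations were two-sided, with 100000 resamples. The part of striatal tissue in the group differences of the sodium channel genes was not tested.

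**Figure D5:**
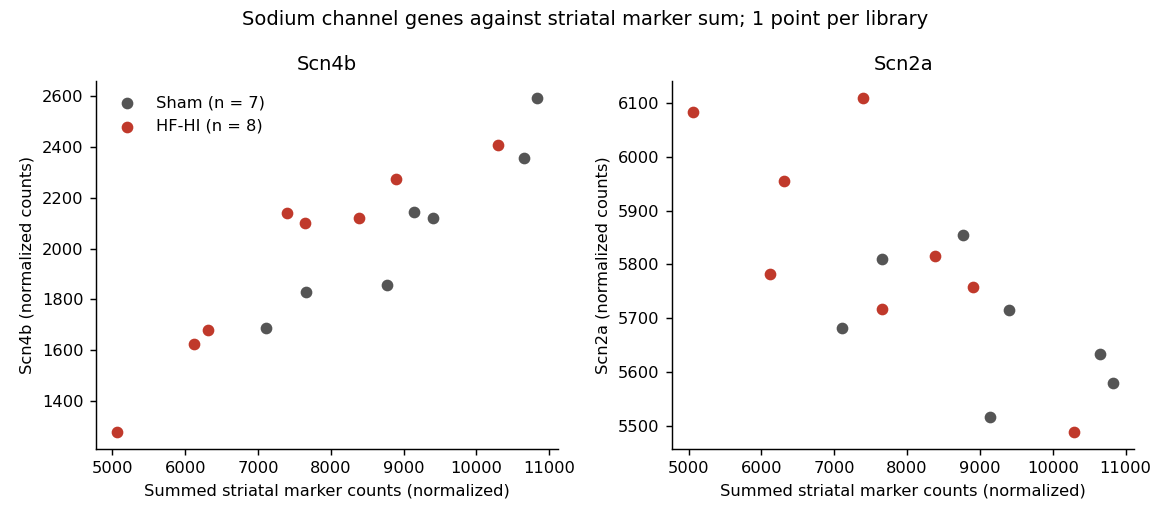
Normalized counts of Scn4b (left) and Scn2a (right) on the vertical axes against the summed normalized counts of 8 striatal projection neuron markers on the horizontal axes, with linear axes that do not start at 0. Each point is a library, grey for Sham (n = 7) and red for HF-HI (n = 8). Scn4b is higher where the marker sum is higher (r = 0.913), and Scn2a is lower (r = −0.733).

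The genes most like each member across libraries were taken as the 3 with the highest Pearson r of log2 summed counts, centred within each group, over 15 libraries and 7734 other genes. For Scn4b they were Ppp1r1b (0.97), Rgs9 (0.93) and Drd1 (0.92), all of them on the striatal marker list. Scn8a was most like Spred3 (0.93), Kmt2c (0.92) and Fmnl1 (0.91), and Scn2b most like C130074G19Rik (0.93), Hsd17b4 (0.88) and Pcsk2 (0.85). Scn1a was most like Megf9 (0.86), Gabrb2 (0.80) and Tubb3 (0.80), and Scn2a most like Rab3c (0.88), Homer2 (0.83) and Agps (0.83). Scn3a was most like Lmo7 (0.89), Ryr3 (0.87) and Epb41l2 (0.86), and Scn3b most like Use1 (0.90), Fam173a (0.89) and Tmem128 (0.86). These values are the highest of many and describe these libraries only. Among the members themselves, the within-group r ran from −0.60 (Scn2a and Scn4b) to 0.52 (Scn3a and Scn4b).

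Genes whose products anchor, modify or resemble sodium channels were examined as further lists. Scaffold and adhesion genes of the axon initial segment and node, such as Ank3 and Nfasc, had 12 of 12 genes and 37 transcripts listed, with 2 transcripts of 37 higher and none lower at an unadjusted p under 0.05, near the 4.94% of all transcripts that were higher. They were Cntn1-202, from a contactin gene, at 547 ± 50.8 and 723 ± 133 (limma adjusted p = 0.319), and Nfasc-202, from the neurofascin gene, at 1105 ± 68.0 and 1183 ± 68.5 (limma adjusted p = 0.555). For Cntn1-202, 7 of 8 HF-HI libraries lay above every Sham library, and the share of all transcripts with as little overlap was not computed. Summed over its listed transcripts, Cntn1 had a log2 difference of −0.00054 (voom adjusted p = 0.999), with 4 HF-HI libraries above the Sham median and 4 below. Summed Nfasc had a log2 difference of 0.05 (voom adjusted p = 0.758).

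The FGF homologous factors, which bind the tail of the alpha subunit, had 3 of 4 genes and 3 transcripts listed, and 0 had an unadjusted limma p under 0.05, against 8.83% of all transcripts. Channel turnover and processing genes, which include Nedd4l and Bace1, had 0 of 10 transcripts below that p, and the complex of the sodium leak channel Nalcn had 0 of 5. Among RNA-binding regulators, 2 of 17 transcripts had an unadjusted p under 0.05, against the same background of 8.83%, both from Pum2, whose product is a translational repressor that binds sodium channel mRNA. Pum2-216 averaged 1192 ± 237 normalized counts in Sham libraries and 841 ± 168 in HF-HI libraries (limma adjusted p = 0.338). Pum2-207, annotated as subject to nonsense-mediated decay, had 739 ± 154 and 1069 ± 211 (limma adjusted p = 0.319). No gene of these partner lists had an unadjusted p under 0.05 when its transcripts were summed (voom).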

How the data were processed

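Total RNA libraries of mouse cortex (7 Sham, 8 HF-HI, 1 month) were analysed from the table the authors deposited, whose values are variance-stabilized log2 values (VSD) of transcript counts. The authors prepared stranded, rRNA-depleted libraries, aligned reads to mm10 with STAR, counted transcripts with eXpress and normalized with DESeq2; the annotation release is not given in the sources used here. The transformation was inverted with the value of a count of 0 (VSD 9.81), which gave whole reads for 100% of values within 0.1 reads. No listed transcript had a mean below 108 normalized counts, and scarcer ones are not analysed here. Of 10370 transcripts, 10241 matched GENCODE M21. Transcripts were tested with limma 3.58.1 (R 4.3.3, eBayes with trend) on VSD, summed reads per gene with voom, and transcript usage with diffSplice, two-sided, with group as the only term and Benjamini-Hochberg adjustment over all features at the study's threshold of 0.1. The authors used DESeq2 Wald tests and reported genes that differed significantly at 1 month, so the calls here are not theirs. Single values were also tested by exact permutation over all 6435 splits, chosen after seeing the data. Differences in VSD understate log2 changes, most of all for low transcripts. The difference of Scn1a-204 was 0.21 in VSD and 0.48 in log2 normalized counts plus 1, and that of Scn1a-201 was −0.13 and −0.28. Per-length levels divide each transcript's count by its annotated length. The scripts were tested on simulated counts drawn independently for each transcript. Such counts hold no division of shared reads between transcripts of a gene, so that test does not cover its effect on diffSplice. Alternatives changed the eBayes prior, scaling, pseudocount (1 or 10), a filter at 300 normalized counts, library weights, depth, replicate number and each library left out. Members, gene lists and tests were chosen with earlier results of these data known. All members and every partner gene with an unadjusted p under 0.05 are named, with the 3 genes most like each member. Some sequences and a partner gene are not reported here.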

Additional observations from a re-analysis of the deposited data

Results flagged for a closer look

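Among 62 sets of values from a single group that were checked for a library far from the others (Dixon's test at the 95% level, by which chance marks about 1 set in 20), 2 were marked, and both concern Scn2a-204, a short Scn2a transcript. In Sham replicate 3 it had 249 normalized counts, against 344 in the nearest Sham library. Its share of the listed Scn2a counts was 4.43% there, against 6.02% in the nearest Sham library.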

How the results depend on the processing

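The library labels share replicate numbers, but the numbers did not pair the samples: correlations between same-numbered libraries ran from −0.14 to 0.09. With replicate number as a block, 1 member transcript and 1 member gene had an unadjusted p under 0.05, 2 transcripts did so for usage, 891 of all transcripts did, and Scn1a-204 usage had an adjusted p of 0.106. With depth as a covariate these counts were 2, 0, 2 and 533, and the filter at 300 normalized counts gave 525 of all transcripts, which are fewer to test. The ratio test of usage called 1 transcript. Leaving out each library gave 1 to 2 member transcripts, 0 to 3 member genes, 2 to 4 transcripts for usage and 748 to 987 of all transcripts. Backgrounds of all genes and of diffSplice usage are not given for the alternatives. In the main fits they were 9.44% of genes and 13.2% of the transcripts tested for usage.

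Differences near 0 changed sign. For Scn8a-205 they were −0.0011 with median centring, −0.0090 with quantile normalization and −0.0237 to 0.0180 on leaving out libraries. For Scn3b-203 they were 0.0015 with quantile normalization, 0.0086 and 0.0063 with pseudocounts of 1 and 10, 0.10 with voom, 0.0103 with depth and −0.0344 to 0.0195 on leaving out libraries. On leaving out libraries, Scn1a-203 ran from −0.0081 to 0.0388, Scn1a-205 from −0.0211 to 0.0027 and Scn2a-202 from −0.0510 to 0.0506. Usage ran from −0.0470 to 0.0575 for Scn1a-203, −0.0807 to 0.13 for Scn2a-201, −0.19 to 0.10 for Scn2a-202 and −0.0350 to 0.12 for Scn2a-204. With depth, Scn1a-205 had 0.0022 and Scn8a-201 −0.0149. Usage with depth gave 0.0048 for Scn1a-203, −0.12 for Scn8a-201 and 0.0107 for Scn8a-205, and the ratio test with depth −0.11 and 0.0254 for the latter pair. Counts and causes beyond these values were not tested.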
